A study of Homo sapiens with 27 samples.

Results

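The genes described here encode 10 secreted inflammatory proteins: the cytokines IL1A, IL1B, IL6 and LIF, the chemokines CXCL1, CXCL2, CXCL3 and CXCL8, and the growth factors CSF2 and CSF3. They are 10 of 57165 genes in the deposited table, and all 10 are present in it. The genes were listed by name and selected on earlier results of these libraries, among them that CSF3 and IL1B responded differently in the lines, so the values of these 10 genes in targeted against No gRNA cells are given below as a description: no p-value is given, and nothing is read from how many passed a threshold. CSF3 and IL1B are also given without a p-value in the comparison of No gRNA with wild type cells, which shares the No gRNA libraries, and counts there are also given without them.

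RNA was sequenced from SUM159 and MDA-MB-231, human triple negative breast cancer (TNBC) cell lines of a mesenchymal type, in 27 libraries that form 9 groups of 3. In each line, untransduced wild type cells were set against cells carrying pLV-KRAB, a lentivirus for dCas9-KRAB (a cutting-dead Cas9 fused to a repressor domain), either without a guide RNA (No gRNA) or with guide RNAs against the promoter of ZEB1, a repressor that drives epithelial-mesenchymal transition. SUM159 was given gRNA 4 or the pool of guides (All gRNA). Transduced cells were selected with puromycin, at 1.25 µg/mL for SUM159 and 0.75 µg/mL for MDA-MB-231, and wild type cells were not. For 6 MDA-MB-231 libraries the labels conflict: in set 1 the titles name gRNA 4 and the column names the pool, and in set 2 the reverse. All MDA-MB-231 libraries were sequenced in run 2 and the SUM159 libraries in run 1, with 3 more SUM159 wild type libraries in run 2. The lines also grew in different media, and that of SUM159 held hydrocortisone and insulin. The study's methods call its replicates individual clones, and the labels call them biological replicates. Each library held 15461200 to 21473757 estimated counts.

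These proteins are the classic output of the inflammatory arm of NF-kB signalling. IL-1α and IL-1β bind the receptor IL1R1 with its partner IL1RAP, and the signal that follows activates NF-kB and AP-1, which switch on the chemokine, CSF and IL6 genes as well as IL1A and IL1B themselves. CXCL1, CXCL2, CXCL3 and CXCL8 attract neutrophils through CXCR1 and CXCR2, CSF3 (G-CSF) drives the formation of neutrophils, and CSF2 (GM-CSF) that of granulocytes and macrophages. IL-6 and LIF signal through the shared receptor subunit IL6ST to STAT3. Mesenchymal breast cancer lines are known for secreting several of these factors.

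The genes sit in a few clusters. On GRCh38 with the GENCODE annotation, CXCL8 (ENSG00000169429, chromosome 4, 73740519 to 73743716, plus strand), CXCL1 (ENSG00000163739, 73869393 to 73871308, plus strand), CXCL3 (ENSG00000163734, 74036589 to 74038807, minus strand) and CXCL2 (ENSG00000081041, 74097040 to 74099196, minus strand) share a stretch of chromosome 4. IL1A (ENSG00000115008, 112773925 to 112784493, minus strand) and IL1B (ENSG00000125538, 112829751 to 112836816, minus strand) are neighbours on chromosome 2. IL6 (ENSG00000136244) spans 22725884 to 22732002 on the plus strand of chromosome 7, CSF2 (ENSG00000164400) 132073789 to 132076170 on the plus strand of chromosome 5, CSF3 (ENSG00000108342) 40015361 to 40017813 on the plus strand of chromosome 17, and LIF (ENSG00000128342) 30240453 to 30246759 on the minus strand of chromosome 22.

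RefSeq promoter windows (GRCh38.p14) were matched for 8 of the 10 genes, all but CSF3 and LIF. The 120 bases before the start sites of CXCL1, CXCL2 and CXCL3 are printed because these chemokines share a match to the NF-kB consensus, in capitals, and yet differ in level as given below. They run 5′ to 3′ on the strand of the gene, at chr4:73869273-73869392 (plus), chr4:74099196-74099315 (minus) and chr4:74038690-74038809 (minus).
CXCL1: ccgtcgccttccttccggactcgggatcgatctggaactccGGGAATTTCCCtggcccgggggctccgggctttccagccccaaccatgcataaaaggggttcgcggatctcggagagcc
CXCL2: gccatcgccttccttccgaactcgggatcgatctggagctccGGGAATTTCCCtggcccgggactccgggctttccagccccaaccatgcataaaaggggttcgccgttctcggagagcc
CXCL3: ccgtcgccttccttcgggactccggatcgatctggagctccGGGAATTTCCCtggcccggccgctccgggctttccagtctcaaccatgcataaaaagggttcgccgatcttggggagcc
The windows of CXCL1 and CXCL2 were 93.4% identical over their alignment, those of CXCL1 and CXCL3 90.8% and those of CXCL2 and CXCL3 88.4%, against 45.3% to 47.4% for each of them with CXCL8. Over the 250 bases before the start site and on both strands, the NF-kB consensus was found in 4 of the 8 windows (IL6, CXCL1, CXCL2 and CXCL3), against 5.21% of 35116 promoters. The AP-1 motif TGANTCA was found in 2 (IL1A and CXCL8, against 6.57%), and the E-box CACCTG, the motif known for ZEB1, in 0 (against 17.5%). The letters TATAAA of the TATA box were found in 2 (IL1A and CXCL8), against 10.7%. They lay 31 to 26 bases before the start site in CXCL8 and 239 to 234 bases before it in IL1A. These are matches of letters in a short window, and no binding was measured.

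The targeted gene was examined first. ZEB1 stood at 79.7 ± 4.09 CPM (counts scaled to a common library size, mean ± SD, n = 3) in SUM159 wild type cells of run 1, 78.1 ± 1.49 in those of run 2, 73.8 ± 3.30 in No gRNA, 3.46 ± 1.01 in gRNA 4 and 0.738 ± 0.331 in All gRNA. The MDA-MB-231 wild type cells had 70.1 ± 4.27 CPM of ZEB1, those without a guide 110.2 ± 10.1, set 1 5.34 ± 0.520 and set 2 4.69 ± 0.889 CPM, so ZEB1 was low in both sets and does not tell which label is right. The hormone receptors ESR1 and PGR that TNBC lacks were under 1 CPM in the mean of every group, while ERBB2 was at 42.1 to 63.1 CPM. The mesenchymal gene VIM was high, at 1321 to 4079 CPM. The claudin genes that are low in claudin-low lines were near 0 in SUM159, where CLDN4 did not exceed 0.742 CPM, but CLDN4 reached 66.3 CPM and CLDN7 17.6 CPM in MDA-MB-231 wild type cells. Leukocytes can make all of these cytokines, and the 11 leukocyte markers summed to 0.431 to 3.84 CPM in SUM159 libraries and 12.1 to 29.8 CPM in MDA-MB-231, where most of it was the integrin ITGB2. TYROBP was at 0 in all libraries, and PTPRC (CD45) did not exceed 0.194 CPM in the mean of any group. ITGB2 was at 11.7 ± 1.30 CPM in MDA-MB-231 wild type cells and at 20.7 ± 2.46 CPM in No gRNA. The 11 markers summed to 23.6 to 29.8 CPM in MDA-MB-231 No gRNA, 19.6 to 21.3 CPM in set 1 and 15.8 to 17.1 CPM in set 2. In SUM159 they summed to 3.03 to 3.84 CPM in No gRNA and 0.431 to 1.76 CPM in wild type cells of run 1. The part of these markers in the results below was not tested.

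All members were measurable in MDA-MB-231, whereas SUM159 had hardly any CXCL1 or CSF2. Per kilobase of the longest annotated transcript, the scale on which genes can be compared with each other, CXCL8 was the most abundant member in 8 of the 9 groups, from 59.4 ± 1.08 CPM per kb in SUM159 wild type cells of run 2 to 790 ± 26.8 in MDA-MB-231 No gRNA. In MDA-MB-231 set 2, CXCL1 (154 ± 3.48 CPM per kb) stood above CXCL8 (123 ± 4.13), but with the length of the canonical transcript they were at 154 and 151 CPM per kb. The lowest members in each SUM159 group were CSF2 and CXCL1, at 0.187 to 1.29 CPM per kb. All 10 genes passed the filter on low counts in each fit.

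The untransduced lines were compared within run 2. In the 3 SUM159 wild type libraries of that run IL1B was at 5.00, 4.70 and 5.49 CPM, and in the 3 MDA-MB-231 wild type libraries at 103, 103 and 98 CPM. IL6, the cytokine of the acute phase response, was at 2.38, 1.92 and 3.18 CPM in SUM159 and at 29.7, 31.1 and 28.8 CPM in MDA-MB-231. LIF was at 12.8, 15.8 and 11.4 CPM in SUM159 and at 82.6, 81.0 and 85 CPM in MDA-MB-231. The groups did not overlap for any of these. With limma's TREAT, which asks whether a gene changed by more than 2-fold (a log2 fold change of 1), 7 of the 10 genes were lower in SUM159 and 0 higher, where 16.9% of 16473 genes were lower and 11.8% higher. The 7 include CXCL1 and CSF2, which passed the filter on low counts through MDA-MB-231 alone, so nothing is read from their calls. IL1B was lower by 20.4-fold (log2 fold change -4.35 ± 0.120 SE, adjusted p = 2.97e-11), IL6 by 12.4-fold (-3.63 ± 0.158, adjusted p = 5.53e-09), LIF by 6.40-fold (-2.68 ± 0.128, adjusted p = 6.20e-08), CXCL8 by 5.13-fold (-2.36 ± 0.0639, adjusted p = 4.85e-10) and CXCL3 by 3.19-fold (-1.67 ± 0.107, adjusted p = 8.85e-05).

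CXCL1 and CSF2 were near the limit of counting in SUM159 but not in MDA-MB-231. CXCL1 was at 0.756, 0.179 and 0.467 CPM in SUM159 wild type cells of run 2, or 2.82 to 11.9 counts, and at 216, 212 and 215 CPM in MDA-MB-231. CSF2 was at 0.250, 0.188 and 0.251 CPM in SUM159, or 2.96 to 3.98 counts, and at 62.5, 63.1 and 61.5 CPM in MDA-MB-231. Both passed the filter on low counts here through MDA-MB-231 alone, so no p-value is given. With so few counts in SUM159 the size of these differences is not well fixed. IL1A (0.28 ± 0.0950), CXCL2 (-1.15 ± 0.0635) and CSF3 (-1.01 ± 0.0807) did not pass the threshold of 2-fold. The SUM159 wild type libraries of run 1 held more of all 10 members than those of run 2. CXCL8 was there at 1510 to 1530 CPM and CXCL3 at 58.5 to 61.7 CPM. These lay above the MDA-MB-231 wild type libraries, at 588 to 607 CPM and 24.4 to 25.1 CPM. The order of the lines thus depended on the run for CXCL8 and CXCL3. The same held for CXCL2, at 153.6 ± 1.87 CPM in SUM159 run 1, and CSF3, at 61.7 CPM in the mean. IL1A was at 585.3 CPM in SUM159 run 1, against 25.2 CPM in MDA-MB-231. For IL1B (48.3 against 101.2 CPM), LIF (54.8 against 82.8 CPM) and IL6 (7.75 against 29.9 CPM) the lines lay closer than within run 2. CXCL1 and CXCL2 thus differed by line in unlike degree although their promoter windows, printed above, are nearly the same. Of the distinct 50-base stretches of CXCL1, 4.57% also occur in CXCL2 or CXCL3, and SUM159 with 31.5 to 35.4 CPM of CXCL2 had under 1 CPM of CXCL1.

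Cells with the empty vector were compared with wild type cells of the same run to see what dCas9-KRAB, the lentivirus and puromycin did together, which cannot be told apart here. Most members were lower in SUM159 and higher in MDA-MB-231, although the SUM159 direction turned against wild type cells of run 2, as given below. In SUM159, 6 of 10 were called lower and 0 higher, where 0.489% of 15147 genes were lower and 1.04% higher. In MDA-MB-231, 7 of 10 were called higher and 0 lower, where 2.33% of 15721 genes were higher and 1.27% lower, and CSF3 lost its call when wild type replicate 3 was left out. Without IL1B and CSF3, on which the genes were selected, 5 of the other 8 were called lower in SUM159 and 5 of 8 higher in MDA-MB-231. In bulk libraries a change in the number of cells that make a transcript and a change in transcript per cell cannot be told apart.

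IL1A, the IL-1 form that is active without cleavage, was at 583, 591 and 582 CPM in SUM159 wild type cells of run 1 and at 105, 101 and 104 CPM in No gRNA. It fell by 2.51 on the log2 scale (SE 0.0547, adjusted p = 1.68e-08), which is 5.69-fold. In MDA-MB-231 it went from 22.1, 27.2 and 26.3 CPM in wild type cells to 188, 167 and 181 CPM in No gRNA, a rise of 2.77 (SE 0.0826, adjusted p = 7.21e-08) or 6.83-fold. No libraries overlapped in either line. IL1B, which needs cleavage by caspase-1 to become active, stood at 46.1, 52.8 and 46.1 CPM in SUM159 wild type and 11.8, 10.8 and 11.4 CPM in No gRNA (log2 fold change -2.09 ± 0.115). In MDA-MB-231 IL1B stood at 103, 103 and 98 CPM in wild type and 479, 470 and 505 CPM in No gRNA (2.21 ± 0.0425).

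The chemokines followed the same split. CXCL8 (IL-8) was at 1510, 1530 and 1530 CPM in SUM159 wild type cells of run 1 and at 292, 250 and 300 CPM in No gRNA, lower by 5.47-fold (-2.45 ± 0.0771, adjusted p = 4.26e-07). In MDA-MB-231 it was at 588, 607 and 603 CPM in wild type cells and at 1630, 1530 and 1630 CPM in No gRNA, higher by 2.56-fold (1.36 ± 0.0377, adjusted p = 6.67e-05). CXCL3 fell by 2.16 (SE 0.0873, adjusted p = 7.00e-06) and CXCL2 by 1.39 (SE 0.0650, adjusted p = 0.00511) in SUM159. In MDA-MB-231 the log2 fold changes of CXCL1 (0.26 ± 0.0322), CXCL2 (0.89 ± 0.0474) and CXCL3 (0.63 ± 0.0733) were under the threshold, although a moderated test against 0 called all of them higher, with a largest adjusted p of 3.22e-05, where it called 53.8% of all genes in either direction. CXCL1 in SUM159 went from 1.59, 1.58 and 1.39 CPM to 0.482, 0.223 and 0.421 CPM. It passed the filter on low counts there through the wild type libraries alone, so no p-value is given.

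Of the growth factors, CSF2 in MDA-MB-231 was at 62.5, 63.1 and 61.5 CPM in wild type cells and at 248, 231 and 248 CPM in No gRNA, a rise of 3.74-fold (1.90 ± 0.0526, adjusted p = 4.61e-07). In SUM159 it stayed near the limit of counting, at 1.16, 0.851 and 0.754 CPM in wild type cells and 0.112, 0.235 and 0.276 CPM in No gRNA. Its adjusted p was 0.538 with TREAT and 0.00281 with the moderated test, which called 42.9% of all genes in either direction. CSF3 in SUM159 was at 56.9, 55.6 and 72.6 CPM in wild type cells and 31.0, 38.0 and 33.5 CPM in No gRNA (-0.85 ± 0.164), and in MDA-MB-231 at 35.3, 33.7 and 31.6 CPM and 86.4, 84.1 and 84.6 CPM (1.29 ± 0.0590). Of the IL-6 family, LIF and IL6 both rose in MDA-MB-231, while in SUM159 against run 1 LIF was called lower and IL6 was not. LIF was not tested against IL6. LIF fell by 1.64 in SUM159 (SE 0.117, adjusted p = 0.00873, but 0.0641 when the compared groups were fitted alone) and rose by 1.81 in MDA-MB-231 (SE 0.0625, adjusted p = 4.65e-06). IL6 rose by 1.49 in MDA-MB-231 (SE 0.0592, adjusted p = 0.000194), whereas in SUM159 its wild type libraries (5.63, 9.68 and 7.93 CPM) and No gRNA libraries (8.27, 9.13 and 7.22 CPM) overlapped (0.10 ± 0.228, adjusted p = 1).

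The difference between the lines was tested itself, as the effect in SUM159 minus that in MDA-MB-231 in a fit of 24 libraries. It was negative for all 10 genes, and limma's moderated test called all 10, where it called 36.2% of 17182 genes in either direction. Without IL1B and CSF3, it called 8 of 8. In SUM159 No gRNA, CXCL1 averaged 6.55 counts and CSF2 3.6, so nothing is read from their calls. The difference was largest for IL1A (-5.35 ± 0.0958, adjusted p = 2.34e-19) and smallest for IL6 (-1.45 ± 0.209, adjusted p = 1.31e-05).

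**Figure D1:**
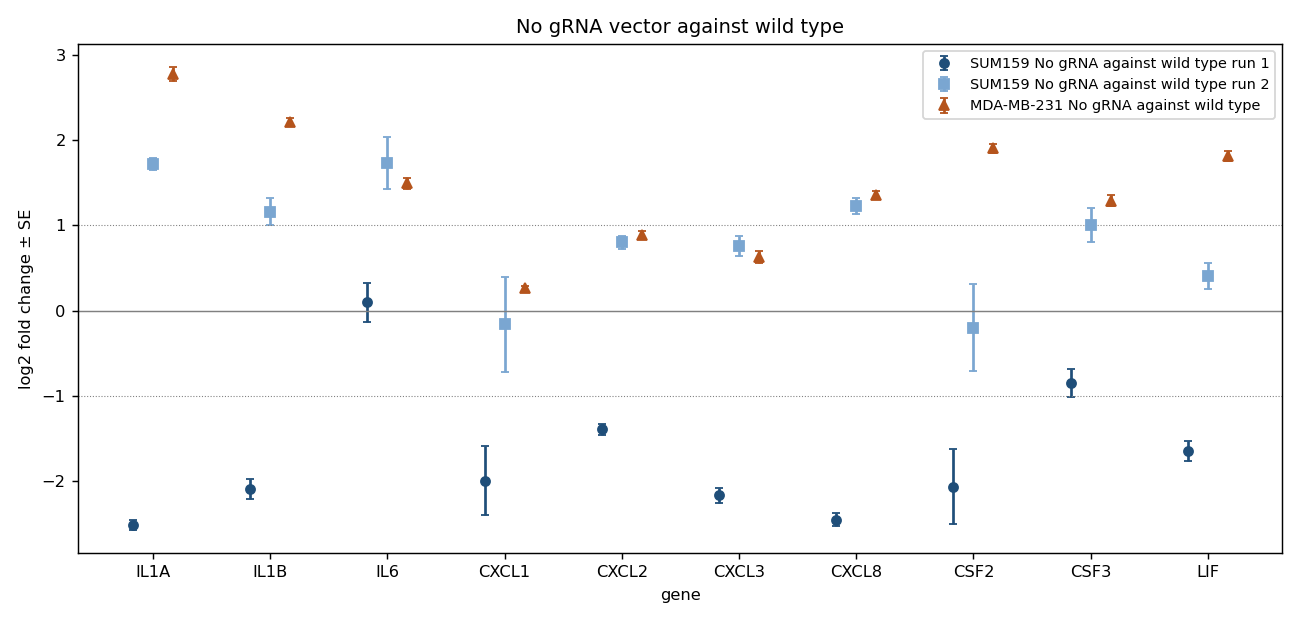
Log2 fold change of each gene in No gRNA against wild type cells, with bars of 1 SE; dotted lines mark 2-fold. SUM159 against its run 1 wild type libraries (dark blue) lies below 0 for every gene but IL6, MDA-MB-231 (orange) lies above 0 for all, and SUM159 against its run 2 wild type libraries (light blue) lies above 0 for 8 of 10.

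The SUM159 direction depended on which wild type libraries served as control. In run 2 the untransduced SUM159 cells had far less of these transcripts than in run 1: IL1A was at 31.2, 31.2 and 31.5 CPM against 583, 591 and 582 CPM, and CXCL8 at 122, 120 and 117 CPM against 1510, 1530 and 1530 CPM. TREAT called 7 of 10 members lower in run 2 and 0 higher, where 2.90% of 15460 genes were lower and 3.56% higher. IL1A was 18.8-fold lower (-4.23 ± 0.0664, adjusted p = 1.02e-12), CXCL8 12.8-fold (-3.68 ± 0.0839, adjusted p = 4.88e-11), IL1B 9.56-fold (-3.26 ± 0.139, adjusted p = 5.10e-08), CXCL3 7.61-fold (-2.93 ± 0.101, adjusted p = 9.96e-09), CXCL2 4.56-fold (-2.19 ± 0.0717, adjusted p = 4.43e-08), LIF 4.15-fold (-2.05 ± 0.132, adjusted p = 6.83e-05) and CSF3 3.62-fold (-1.85 ± 0.185, adjusted p = 0.00548). IL6 (-1.63 ± 0.299, adjusted p = 0.273) and CSF2 (-1.86 ± 0.413, adjusted p = 0.277) did not pass. CXCL1 (-1.83 ± 0.447) was not called either. It passed the filter on low counts through the run 1 wild type libraries alone, so no p-value is given.

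With the run 2 wild type libraries as control, SUM159 No gRNA cells had 1 of 10 members called higher and 0 lower, where 1.92% of 15460 genes were higher and 0.705% lower. That member was IL1A (1.72 ± 0.0739, adjusted p = 1.91e-05). The difference from MDA-MB-231 was then called for 4 of 10 (IL1A, IL1B, CSF2 and LIF), or 3 of 8 without IL1B and CSF3, where the moderated test called 40.5% of 17201 genes. CSF2 averaged 3.6 counts in SUM159 No gRNA and 3.63 in wild type cells of run 2, so nothing is read from its call. Culture, RNA preparation and run cannot be told apart between the sets of wild type libraries. The change in MDA-MB-231, where all libraries are of run 2, does not rest on this choice. That line has no other wild type set, so how far its untransduced cells vary between sets could not be checked.

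In the comparison by which the genes were chosen, CSF3 and IL1B stood out in SUM159. CSF3 was at 31.0, 38.0 and 33.5 CPM in cells without a guide, at 141, 183 and 160 CPM in gRNA 4 and at 242, 196 and 195 CPM in All gRNA. The log2 fold change was 2.23 ± 0.153 for gRNA 4 and 2.62 ± 0.150 for All gRNA. IL1B was at 11.8, 10.8 and 11.4 CPM in No gRNA, at 62.2, 52.2 and 55.1 CPM in gRNA 4 and at 56.3, 62.7 and 56.2 CPM in All gRNA (2.30 ± 0.115 and 2.36 ± 0.115). These 2 of the 10 were past the TREAT threshold in each comparison, beside 0.297% of all genes higher and 0.0924% lower for gRNA 4 and 0.330% and 0.0660% for All gRNA, from which nothing is read since they were selected on it. IL1A (0.63 ± 0.0614 and 0.63 ± 0.0611), CXCL8 (0.66 ± 0.0862 and 1.00 ± 0.0841) and LIF (0.67 ± 0.128 and 0.69 ± 0.127) were also above No gRNA in all targeted libraries. So was CSF2 (1.14 ± 0.482 and 1.69 ± 0.458), at under 1 CPM, where leaving out 1 library gave 0.80 to 1.48 and 1.36 to 1.91. CXCL2, CXCL3 and IL6 overlapped No gRNA, with log2 fold changes between -0.21 and 0.14, as did CXCL1 (-0.73 ± 0.542 and 0.28 ± 0.478) at under 1 CPM.

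Against wild type cells of run 1 the same genes sorted differently. IL1B in the targeted SUM159 cells was near the wild type level (0.21 ± 0.0844 for gRNA 4 and 0.26 ± 0.0834 for All gRNA), and CSF3 was above it (1.37 ± 0.133 and 1.77 ± 0.129). CXCL8 (-1.79 ± 0.0725 and -1.46 ± 0.0700) and IL1A (-1.88 ± 0.0508 and -1.87 ± 0.0504) remained below it. Against the run 2 wild type level of 15.7 to 18.3 CPM for CSF3 and 4.70 to 5.49 CPM for IL1B, all 6 targeted libraries were higher.

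In MDA-MB-231, CSF3 was at 86.4, 84.1 and 84.6 CPM without a guide, at 36.6, 38.9 and 35.7 CPM in set 1 and at 45.7, 49.0 and 45.1 CPM in set 2, so all targeted libraries were below No gRNA, and both sets lay above the wild type range of 31.6 to 35.3 CPM, set 1 by little. Its log2 fold change was -1.19 ± 0.0584 in set 1 and -0.84 ± 0.0551 in set 2. IL1B was at 529, 520 and 516 CPM in set 1, near No gRNA (0.11 ± 0.0295), and at 141, 147 and 149 CPM in set 2 (-1.71 ± 0.0389). In set 1, IL1A was past the threshold (1.27 ± 0.0455), beside 1.10% of genes higher and 0.369% lower. In set 2, 7 members were past it on the lower side, beside 2.40% of genes lower and 1.74% higher. These counts are likewise a description of the comparison that chose the genes. The lowest log2 fold changes in set 2 were those of CXCL8 (-2.66 ± 0.0492), CXCL2 (-2.56 ± 0.0638) and IL1A (-2.13 ± 0.0733).

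**Figure D2:**
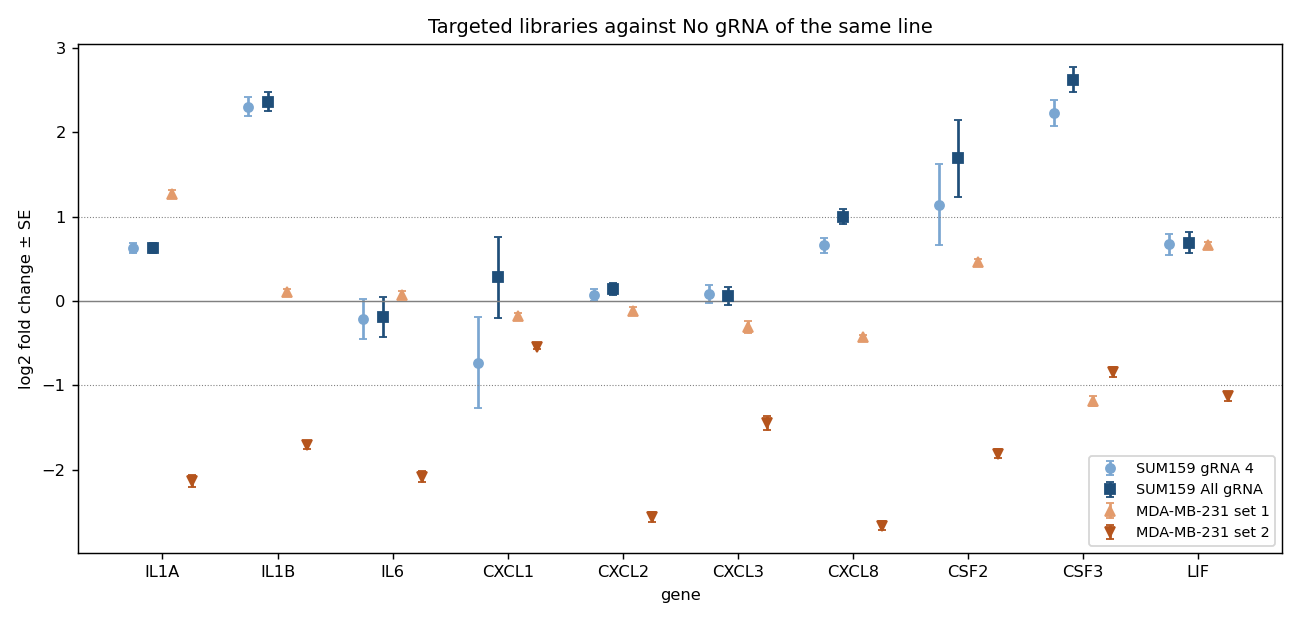
Log2 fold change of each gene in the targeted groups against No gRNA of the same line, with bars of 1 SE; dotted lines mark 2-fold. CSF3 lies above 2 in both SUM159 groups and below 0 in both MDA-MB-231 sets, and set 2 lies below 0 for all 10 genes.

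The targeted groups were also compared with each other. In SUM159 no member differed between All gRNA and gRNA 4 with TREAT, which called 0% of genes (32 genes had an unadjusted p under 0.05), or with the moderated test, which called 0.944%. At an unadjusted p under 0.05 the moderated test gave 2 members, among 1737 of 15147 genes, and TREAT 0. edgeR called 140 genes and 0 members, and DESeq2 called 357 genes and 1 member, CXCL8 (0.34 ± 0.0799 in limma's fit, moderated adjusted p = 0.0843). The log2 fold change was 0.40 ± 0.115 for CSF3 and 0.06 ± 0.0837 for IL1B, which were selected on these libraries and are given as values only.

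The MDA-MB-231 sets, in contrast, were far apart. TREAT called 7 of 10 members lower in set 2 than in set 1 and 0 higher, where 1.86% of genes were lower and 1.21% higher. Without IL1B and CSF3 it called 6 of 8 lower. IL1A was at 440, 423 and 425 CPM in set 1 and at 39.9, 41.8 and 38.4 CPM in set 2, which is 10.6-fold lower (-3.40 ± 0.0694, adjusted p = 8.71e-10). CXCL2 was at 126, 129 and 136 CPM and at 23.3, 25.2 and 22.4 CPM (-2.44 ± 0.0648, adjusted p = 3.51e-08), and CXCL8 at 1240, 1140 and 1160 CPM and at 240, 256 and 246 CPM (-2.24 ± 0.0511, adjusted p = 1.68e-08). CSF2 (-2.27 ± 0.0508, adjusted p = 1.37e-08), IL6 (-2.15 ± 0.0663, adjusted p = 3.73e-07) and LIF (-1.79 ± 0.0535, adjusted p = 1.70e-06) were lower as well. IL1B (-1.82 ± 0.0390) and CSF3 (0.35 ± 0.0643) are given without a test, since the targeted libraries entered their selection. CXCL1 (-0.37 ± 0.0348) and CXCL3 (-1.14 ± 0.0871) did not pass. Since the labels of both sets conflict, this difference cannot be assigned to gRNA 4 or to the pool.

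Across the 9 groups, IL1B ranged 103-fold, from 5.07 ± 0.397 CPM in SUM159 wild type cells of run 2 to 521.5 ± 6.72 CPM in MDA-MB-231 set 1, and its 4 MDA-MB-231 groups all stood above its 5 SUM159 groups. LIF kept the same order of the lines, from 13.4 ± 2.25 to 475.1 ± 24 CPM. IL1A, CXCL2 and CXCL3 were instead highest in SUM159 wild type cells of run 1, at 585.3 ± 5.15, 153.6 ± 1.87 and 60.5 ± 1.78 CPM. CSF3 was the one member that was highest in a targeted SUM159 group, at 210.9 ± 27 CPM in All gRNA and 161.4 ± 21.0 CPM in gRNA 4, followed by MDA-MB-231 No gRNA (85.02 ± 1.20 CPM), and its SUM159 No gRNA libraries overlapped those of MDA-MB-231 set 1 and of MDA-MB-231 wild type.

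Receptors for the neutrophil chemokines and for CSF3 were all but absent. CXCR1 did not exceed 0.0205 CPM and CXCR2 0.0490 CPM in the mean of any group, CSF3R did not exceed 0.195 CPM and the beta chain of the CSF2 receptor, CSF2RB, 0.154 CPM. Its ligand-binding chain CSF2RA was at 7.02 to 10.5 CPM in the MDA-MB-231 groups and at 0.565 to 1.06 CPM in those of SUM159. The decoy receptor IL1R2 did not exceed 0.173 CPM. The receptors of the IL-6 family were present: IL6ST was at 461.8 to 1155 CPM, OSMR at 130.9 to 364.3 CPM and LIFR at 49.9 to 107.9 CPM. IL1R1 was at 41.3 ± 4.23 CPM in SUM159 wild type cells of run 2 and at 2.91 ± 0.857 CPM in MDA-MB-231 wild type cells, higher in SUM159 by 3.80 on the log2 scale (SE 0.241, adjusted p = 2.18e-07), and IL6R by 4.12 (SE 0.250, adjusted p = 1.05e-07), against the direction of the ligands IL1B and IL6. Of 12 receptors 7 passed the filter on low counts, and 0 of these were called by TREAT in No gRNA against wild type cells of either line, while the moderated test called 4 higher and 1 lower in SUM159, where it called 42.9% of all genes in either direction, and 4 higher in MDA-MB-231, where it called 53.8%. For IL-1 maturation, CASP1 was higher in SUM159 (2.78 ± 0.273, adjusted p = 6.40e-05). NLRP3 was at 0.067 ± 0.0280 CPM in SUM159 against 16.2 ± 2.63 CPM in MDA-MB-231. The adaptor PYCARD was at 0 in all SUM159 libraries against 1.38 ± 0.203 CPM. Both passed the filter on low counts through MDA-MB-231 alone, so no p-value is given for them. The antagonist IL1RN did not exceed 0.754 CPM in the mean of any group.

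Of 12 transcription factors and signalling genes of the pathway, TREAT called 3 higher in MDA-MB-231 No gRNA than in wild type cells, with 0 lower, beside 2.33% and 1.27% of all genes: CEBPB (1.5 ± 0.0741, adjusted p = 0.000949), RELB (1.48 ± 0.104, adjusted p = 0.0131) and NFKB2 (1.29 ± 0.0634, adjusted p = 0.0132). In SUM159 it called 0 of 12 against either run, and their median log2 fold change was -0.25 against wild type cells of run 1, beside 0.02 over all genes tested, but 0.14 against run 2. Against run 1 the moderated test called 5 of them lower and 1 higher, a share near the 42.9% of all genes. Of 13 feedback inhibitors and mRNA decay genes, TNFAIP3 (A20), which shuts NF-kB signalling off, rose in MDA-MB-231 (1.52 ± 0.0981, adjusted p = 0.00525), the one of the 13 that was called there. It was at 104.8 ± 12.1 CPM in SUM159 No gRNA against 243.8 ± 16.0 in wild type cells (-1.23 ± 0.0964, adjusted p = 0.559), and at 24.3 ± 5.54 CPM in wild type cells of run 2, lower than in run 1 by 3.36 on the log2 scale (SE 0.148, adjusted p = 6.01e-08). Of the 13, 3 were lower in run 2 than in run 1 (TNFAIP3, NFKBIA and TNIP1) and 0 higher, beside 2.90% and 3.56% of all genes. Against run 2, 2 of 13 were higher in SUM159 No gRNA and 0 lower, beside 1.92% and 0.705%: TNFAIP3 (2.13 ± 0.157, adjusted p = 0.000348) and SOCS3 (1.53, adjusted p = 0.0164).

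Other NF-kB target genes split in SUM159 when set against wild type cells of run 1, and the falls among them depended on that control. Of 16 such genes, 1 of which (SOD2) was not in the table, 14 were tested there in No gRNA against wild type cells of run 1, and 3 fell while 5 rose, beside 0.489% and 1.04% of all genes. CCL20, a chemokine for dendritic and T cells, fell by 2.64 (SE 0.101, adjusted p = 1.14e-06), the prostaglandin synthase PTGS2 by 2.39 (SE 0.239, adjusted p = 0.00591) and the signalling adaptor TRAF1 by 2.03 (SE 0.0854, adjusted p = 1.77e-05). The T cell chemokine CCL5 stood at 0.281 ± 0.0927 CPM in wild type cells and 22.2 ± 1.32 CPM in No gRNA. It passed the filter on low counts through the transduced groups alone, so no p-value is given and nothing is read from its call. The iron-binding LCN2, near the minimum count of 10 in wild type cells, rose from 0.555 ± 0.0564 to 13.1 ± 0.543 CPM (4.50 ± 0.205, adjusted p = 8.16e-07). CX3CL1 rose by 3.65 (SE 0.481, adjusted p = 0.00864), and the acute phase genes SAA2 by 2.15 (SE 0.112, adjusted p = 7.16e-05) and SAA1 by 1.53 (SE 0.0559, adjusted p = 0.000149). Against wild type cells of run 2, 10 of 14 were higher in SUM159 No gRNA and 0 lower, beside 1.92% and 0.705% of all genes: CCL20 (2.75 ± 0.290, adjusted p = 0.00162) and TRAF1 (1.70 ± 0.175, adjusted p = 0.0309) turned, PTGS2 was not called (0.60 ± 0.365, adjusted p = 1), and CCL5, LCN2, CX3CL1, SAA1 and SAA2 were called higher as against run 1. The call of CCL5 is again not read, for the same reason. In MDA-MB-231, 7 of 12 tested rose and 0 fell, beside 2.33% and 1.27% of all genes, with PTGS2 (2.95 ± 0.0815, adjusted p = 4.44e-08), CCL20 (2.78 ± 0.221, adjusted p = 0.000256), LCN2 (2.65 ± 0.108, adjusted p = 1.15e-06), TRAF1, ICAM1, CX3CL1 and CXCL11. The difference between the lines was called in a moderated test for 11 of 14 of them, 7 lower in SUM159 and 4 higher (CCL5, LCN2, SAA1 and SAA2), where 36.2% of all genes were called. With run 2 as the SUM159 control it was called for 12 of 14, 4 lower (LCN2 among them) and 8 higher, where 40.5% of 17201 genes were called. Against No gRNA, the TREAT threshold was passed in gRNA 4 by 2 of 14 on the higher side (CCL20 and PTGS2) and 1 on the lower (CCL5), in All gRNA by 1 on the higher (CCL20), in set 1 by 1 of 12 on the higher and 2 on the lower, and in set 2 by 5 on the lower. The shares of all genes on the higher side were 0.297%, 0.330%, 1.10% and 1.74% in that order, and on the lower side 0.0924%, 0.0660%, 0.369% and 2.40%.

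**Figure D3:**
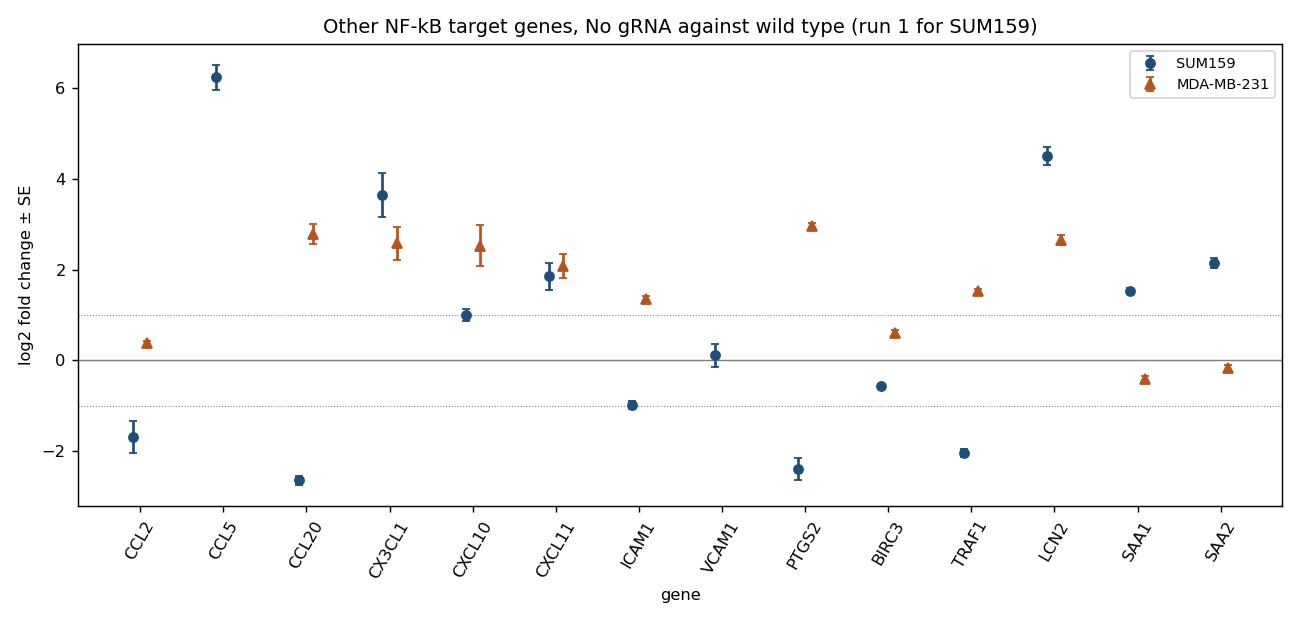
Log2 fold change of other NF-kB target genes in No gRNA against wild type cells (run 1 for SUM159), with bars of 1 SE; dotted lines mark 2-fold, and a gene without a point in a line did not pass the filter there. CCL20, PTGS2 and TRAF1 lie below -2 in SUM159 against run 1 (above 0 against run 2) and above 1 in MDA-MB-231, whereas LCN2 and CX3CL1 lie above 2 in both.

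Among related ligands, the IL-1 family gene IL36B was at 0 in SUM159 wild type cells of run 1 and at 0.702 ± 0.0902 CPM in No gRNA. It was the one of 9 tested that was called, beside 1.04% of all genes higher. Since it passed the filter on low counts through the transduced groups alone, nothing is read from this call. In MDA-MB-231 CSF1 (M-CSF) rose by 1.33 (SE 0.0488, adjusted p = 0.00108), the one of 7, beside 2.33%. It was at 190.6 ± 15.3 CPM in wild type, 495.5 ± 6.70 CPM in No gRNA, 178.6 ± 9.35 CPM in set 1 and 110.2 ± 6.18 CPM in set 2. CSF1 was thus highest in No gRNA, like CSF3, CXCL1, CXCL2, CXCL3 and CXCL8 in this line. IL11, an IL-6 family cytokine, was at 223.5 ± 7.33 CPM in set 1 and 46.7 ± 1.47 in set 2 (-2.24 ± 0.0616, adjusted p = 8.90e-08).

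The genes most like IL1B in log2 CPM over the 27 libraries, among 17319 genes and outside the members, were CD59 (Pearson r = 0.978), PTGS2 (0.975), FOXA2 (0.969), STX1A (0.968) and BCAR3 (0.965). PTGS2 (COX-2), itself an IL-1 target, was at 8.52 ± 0.888 CPM in SUM159 wild type cells of run 1, 1.65 ± 0.529 in No gRNA, 7.65 ± 0.816 in gRNA 4 and 6.31 ± 1.09 in All gRNA, and in MDA-MB-231 at 11.2 ± 0.854, 90.5 ± 3.31, 154 ± 4.30 and 23.6 ± 1.27 CPM in wild type, No gRNA, set 1 and set 2. Within the 15 SUM159 libraries its r with IL1B was 0.947, and within the 12 MDA-MB-231 libraries 0.985. CSF3 had no gene as close: the highest were MUC2 (0.878), MRGPRX3 (0.867), SQOR (0.859), MT2A (0.831) and TFPI2 (0.828), of which MUC2 and MRGPRX3 stayed under 4 CPM in the mean of each group. Within MDA-MB-231 these fell to 0.615 and 0.484 for MUC2 and MRGPRX3 and to -0.846 for MT2A. CSF3 and IL1B were themselves correlated at 0.917 within SUM159 and 0.505 within MDA-MB-231. All of these values are descriptive, since libraries of one group share a condition.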

How the data were processed

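Single-end reads of 50 bp were quantified by the authors with Salmon, and tximport gave the deposited estimated counts of each gene, scaled for transcript length but not normalized between libraries. Per the submitters' notes the build is GRCh38. Strandedness, annotation and Salmon's version are not given in the sources used here. Hence IL6 and LIF, which overlap antisense genes, and CXCL1 to CXCL3, which share sequence, are less certain.

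The 10 members, the gene lists and the named-gene rule (members, ZEB1, list genes, and the 5 genes most correlated with CSF3 and IL1B) were chosen with earlier results of these data known. Of the identifiers, 56347 were matched to GENCODE v44. Comparisons used limma 3.58.1 in R 4.3.3: voom with TMM scaling over 12 libraries of one line, 15 of run 2 for the wild type lines, 15 of SUM159 for the runs or 24 for the difference between lines, filterByExpr (minimum count 10), and TREAT, with a log2 threshold of 1 (voom and TREAT are named in the study's methods), and two-sided Benjamini-Hochberg adjusted p-values under 0.05 over all genes tested. The difference between lines used the moderated test against 0. CPM use TMM-scaled totals of all libraries. Estimated counts were rounded for edgeR 4.0.16 and DESeq2 1.42.0. Each fit was tested on simulated data with an equal replicate spread for all genes. TREAT called 98% to 100% of genes changed by 3 on the log2 scale within lines, between wild type lines and between runs. Of genes changed by 1.5 it called 47% to 62% there. The moderated test of the difference between lines called 96% of those changed by 1.5. All gRNA against gRNA 4 was not simulated. The p-values measure the spread between replicates, which may be clones. The chi-square per degree of freedom between replicates was 7.5 to 17, above sampling noise.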

Additional observations from a re-analysis of the deposited data

Results flagged for a closer look

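The effect of the empty vector, No gRNA against wild type cells, differed between SUM159 (run 1) and MDA-MB-231 for all 10 genes by limma's moderated test of the difference, which called 36.2% of 17182 genes, and for 8 of 8 without IL1B and CSF3. The values, SUM159 minus MDA-MB-231 on the log2 scale, were -5.35 for IL1A, -4.37 for IL1B, -1.45 for IL6, -2.32 for CXCL1, -2.35 for CXCL2, -2.86 for CXCL3, -3.87 for CXCL8, -4.03 for CSF2, -2.21 for CSF3 and -3.52 for LIF. CXCL1 and CSF2 had few counts in SUM159, so the size of their difference is not well fixed and nothing is read from their calls. IL1B and CSF3 were among the values on which the genes were selected, and with the run 2 wild type libraries as the SUM159 control the difference was called for 4 of the 10, beside 40.5% of 17201 genes.

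For CSF3 and CXCL8, every targeted SUM159 library lay above No gRNA and every targeted MDA-MB-231 library below it. With CPM averaged over all targeted libraries of a line, the log2 ratio to No gRNA was 2.45 in SUM159 and -1.02 in MDA-MB-231 for CSF3. For CXCL8 it was 0.84 and -1.16. In MDA-MB-231, the log2 fold change of CXCL8 was -0.43 ± 0.0319 in set 1 and -2.66 ± 0.0492 in set 2. That of CSF3 was -1.19 ± 0.0584 and -0.84 ± 0.0551. The difference between the lines was not tested, since the genes were selected on it.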

How the results depend on the processing

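The number of members called stayed within 1.5 times the main count under DESeq2 size factors, no filter on low counts, only the groups compared, and the moderated, edgeR and DESeq2 tests, with the exceptions that follow. DESeq2 called 1 member (CXCL8) between SUM159 All gRNA and gRNA 4, where TREAT called 0. With wild type run 2 as the control, an alternative chosen after seeing the data, SUM159 No gRNA gave 1 call in place of 6 and the difference between lines 4 in place of 10. Under it the SUM159 log2 fold change turned positive for IL1A (1.72), IL1B (1.16), CXCL2 (0.80), CXCL3 (0.76), CXCL8 (1.23), CSF3 (1.00) and LIF (0.41), and the difference between lines turned positive for IL6 (0.18) and CXCL3 (0.08). The cause was not tested. Same-numbered replicates did not deviate together (correlations from -0.071 to 0.063), and in 1 of 6 comparisons, set 2 against set 1, all numbers correlated best with their own. Treating the replicate number as a block gave 6 calls in SUM159 and 7 in MDA-MB-231 for No gRNA against wild type, as without it, and changed no other call. Leaving out 1 library gave 6 to 7 calls for MDA-MB-231 No gRNA, where CSF3 was lost without wild type replicate 3, and otherwise the main counts: 6 for SUM159 No gRNA, 7 between the lines, between the runs and between the sets, 0 between All gRNA and gRNA 4, and 10 for the difference between lines. Without single libraries the sign turned for values near 0: IL6 in SUM159 No gRNA ranged from -0.11 to 0.28, and in All gRNA against gRNA 4 IL1A ranged from -0.02 to 0.07, IL6 from -0.14 to 0.28, CXCL3 from -0.08 to 0.05 and LIF from -0.02 to 0.06. In All gRNA against No gRNA CXCL1 ranged from -0.09 to 0.77 and IL6 from -0.36 to 0.06, and IL6 against wild type run 1 from -0.30 to 0.17 in All gRNA and from -0.32 to 0.07 in gRNA 4. In the fit of the groups compared alone, LIF in SUM159 No gRNA lost its call (adjusted p = 0.0641). Counts of 1.97 to 33.5 in SUM159 limit CXCL1 and CSF2.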
